A study of Mus musculus with 12 samples.

Results

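The genes described here are the nuclear genes named for subunits of the mitochondrial respiratory chain and the ATP synthase. They were taken by name from the deposited count table: rows without a comma in which a gene name begins with Nduf followed by a, b, c, s or v and a digit (complex I), with Uqcr (complex III), with Cox and a digit from 4 to 8 followed by a, b, c or i (complex IV), or with Atp5 (complex V). The rule gave 80 of the 21947 rows, 37 for complex I, 8 for complex III, 18 for complex IV and 17 for complex V. Of these rows 66 carry 1 gene name, and 14 join the subunit gene with an overlapping neighbour, such as Shmt2 with Ndufa4l2 or Gabpa with Atp5j, so their counts cannot be assigned to the subunit alone. Another 26 rows that match the names hold a comma and were left out. The rule uses names only, and no measured value chose the members. It thereby counts in complex V the rows Atp5sl and Atp5s, for which RefSeq has the symbols Dmac2 and Dmac2l and which are not known as structural subunits of the ATP synthase.

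RNA-Seq was done on primary keratinocytes of newborn BALB/c mice that were grown at 0.05 mM calcium, moved to 0.12 mM calcium to differentiate, and collected 48 h after transfection. The study asked what the loss of suprabasin (Sbsn), a protein of the differentiating epidermal layers, does to these cells. The 12 libraries come from 2 batches. Batch 1 holds 2 libraries without siRNA, 2 with a non-targeting pool (siControl) and 2 with a pool against Sbsn (siSbsn), and batch 2 holds 3 siControl libraries, numbered 1 to 3, and 3 siSbsn libraries, numbered 4 to 6. Each pool was used at 75 pmol, and the study's methods describe transfection in triplicate wells, whereas batch 1 holds 2 libraries per condition. Neither they nor the labels say which libraries came from separate cultures or animals, so p-values measure the spread between these libraries, which may be technical.

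Respiratory complexes carry electrons from NADH and succinate to oxygen and pump protons across the inner mitochondrial membrane, and the ATP synthase uses that gradient to make ATP. Most of their subunits are encoded in the nucleus and imported, while a small set is encoded by mitochondrial DNA, so each complex except complex II mixes products of both genomes. The nuclear genes are expressed in nearly all cells, their promoters are known targets of NRF1, GABPA (an ETS factor) and YY1, and several complex IV subunits have a second isoform used in muscle, lung or testis.

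Total counts ranged from 27934836 to 49553923 per library. Sbsn stood at 1189 and 1356 CPM (counts scaled to the size of the library) in the siControl libraries of batch 1 and at 1965 and 697 CPM in the libraries labelled siSbsn, so 1 library of batch 1 went against its label. In batch 2 Sbsn was 332 to 459 CPM with siControl and 121 to 125 CPM with siSbsn. The keratinocyte markers Krt5, Krt14, Krt17, Trp63, Itga6, Itgb4, Col17a1 and Dsg3 were present in all 12 libraries, and the summed markers of other cells were at most 1160 CPM for fibroblasts (led by Col1a1), 1020 CPM for melanocytes, 29.1 CPM for muscle and brown fat, 9.3 CPM for leukocytes and 2.54 CPM for endothelium. In batch 1 the fibroblast sum was 488 to 1160 CPM in the libraries labelled siSbsn and 413 to 426 CPM with siControl, and the keratinocyte sum 52700 to 64200 and 53300 to 99000 CPM. The part of these markers in the results was not tested. In bulk samples fewer cells of a type and less RNA per cell cannot be told apart. Library siControl replicate 1 of batch 1 stood apart: chi-square per degree of freedom against the other siControl library of its batch was 216, the highest of all replicate pairs, against 4.66 for the closest pair. The members' medians and counts that rest on it are given with and without it.

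The bases before the start are shown for 1 member of each complex that holds the letters searched, and for Atp5b, which holds none. RefSeq promoters of GRCm38.p6, the window from 250 bases before to 50 bases after the start, were matched for 66 of the 80 genes. The letters searched on both strands were GCGCATGC (NRF1), CCGGAAG (ETS) and ATGGCGGC (YY1), and no match to 1 of them overlapped a match to another in the member windows. GCGCATGC was in 9 of the 66 windows (13.6%, against 3.0% of 27025 genes), CCGGAAG in 14 (21.2% against 9.9%), ATGGCGGC in 7 (10.6% against 2.6%), and at least 1 of them in 26 (39.4% against 14.2%). The 250 bases before the start are printed 5′ to 3′ on the strand of the gene, with matches to either strand in capitals: Ndufs3 at chr2:90904722-90904971, minus strand, with an ETS match; Uqcr11 at chr10:80406822-80407071, minus strand, with an ETS match, and with an NRF1 match across the start that is not marked; Cox6a1 at chr5:115348959-115349208, minus strand, with NRF1 letters that match on both strands and an ETS match read on the opposite strand; Atp5k at chr5:108434400-108434649, minus strand, with NRF1 letters on both strands, and with an ETS match past the start that is not printed; and Atp5b at chr10:128083057-128083306, plus strand.
Ndufs3: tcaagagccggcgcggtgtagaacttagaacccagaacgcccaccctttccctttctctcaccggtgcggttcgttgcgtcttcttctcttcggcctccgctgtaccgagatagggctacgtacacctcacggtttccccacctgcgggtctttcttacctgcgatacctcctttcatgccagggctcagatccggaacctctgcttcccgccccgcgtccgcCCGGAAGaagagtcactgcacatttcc
Uqcr11: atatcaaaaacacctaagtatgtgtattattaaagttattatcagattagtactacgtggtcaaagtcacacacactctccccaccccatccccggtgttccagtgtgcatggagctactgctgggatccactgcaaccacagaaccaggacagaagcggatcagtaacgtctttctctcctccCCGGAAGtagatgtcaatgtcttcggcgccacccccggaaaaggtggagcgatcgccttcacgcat
Cox6a1: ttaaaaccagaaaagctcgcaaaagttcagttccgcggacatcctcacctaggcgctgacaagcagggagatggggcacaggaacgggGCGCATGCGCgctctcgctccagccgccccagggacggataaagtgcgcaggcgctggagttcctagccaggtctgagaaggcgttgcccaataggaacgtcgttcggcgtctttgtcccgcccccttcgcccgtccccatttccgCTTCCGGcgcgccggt
Atp5k: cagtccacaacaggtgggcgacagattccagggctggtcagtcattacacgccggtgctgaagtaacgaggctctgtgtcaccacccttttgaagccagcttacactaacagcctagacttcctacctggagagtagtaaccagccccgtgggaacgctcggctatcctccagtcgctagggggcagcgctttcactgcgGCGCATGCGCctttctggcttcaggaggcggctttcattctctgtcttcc
Atp5b: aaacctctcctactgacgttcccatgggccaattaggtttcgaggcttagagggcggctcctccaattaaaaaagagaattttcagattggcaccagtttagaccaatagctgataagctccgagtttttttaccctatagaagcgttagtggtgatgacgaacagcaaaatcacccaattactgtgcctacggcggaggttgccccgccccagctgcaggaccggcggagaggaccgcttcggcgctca
These matches are letters in a window and no more, and binding was not measured. Whether the letters bear on the levels described below was not tested.

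Levels were compared between genes as mean CPM per kilobase of the principal transcript over the 12 libraries, for the 48 rows with 1 name whose longest and principal transcripts have similar lengths. Atp5b, the catalytic beta subunit of the ATP synthase (chr10:128083307-128090388, mm10, plus strand), stood highest of these rows with 837 CPM per kilobase ± 99.9 (SD, n = 12), and its lowest library, at 766, was above the highest library of Atp5a1, the alpha subunit, at 412 (mean 354 ± 25.5). Atp5g3, a gene of the membrane c-ring, had 323 ± 97.5 and overlapped Atp5a1 between libraries, and Atp5d (delta) and Atp5o (the stalk subunit OSCP) followed at 191 ± 80.9 and 143 ± 54.1. In complex IV the order was Cox4i1 at 449 ± 160.0, Cox6a1 at 338 ± 147, Cox6b1 at 290.0 ± 126, Cox8a at 185 ± 71 and Cox7a2 at 145 ± 59.2 CPM per kilobase, and each of these overlapped its neighbour in that order. In complex I Ndufa7 led the 22 rows compared with 260.0 ± 85.1, and the core subunit Ndufs7, which holds the last iron-sulphur cluster before ubiquinone, had 136 ± 48.5. Further core subunits of complex I lay lower: Ndufv1, which binds NADH, at 58.5 ± 17.7, Ndufs8 at 56.4 ± 18.7, Ndufv2 at 55.4 ± 16.7 and Ndufs3 at 38.1 ± 11.2. In complex III Uqcr10 had 227 ± 100, Uqcrq 130 ± 66.2 and Uqcrfs1, the iron-sulphur protein, 81.1 ± 16 CPM per kilobase.

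Of each complex IV isoform pair the widely expressed gene carried nearly all counts. Cox4i1 ranged from 272 to 716 CPM over the libraries, while Cox4i2, the isoform known from lung, ranged from 0.105 to 0.678, a 1075-fold difference in mean CPM per kilobase. Cox6b1 was 785-fold above Cox6b2, the testis isoform, and Cox7a2 was 367-fold above Cox7a1, the isoform of heart and skeletal muscle. Cox6a1 ranged from 127 to 429.9 CPM, and the row that joins the muscle isoform Cox6a2 with Itgad and other names ranged from 0.0252 to 0.183 CPM. Cox8b and Cox8c had 1 count each in all 12 libraries, and Cox7b2, another testis isoform, had 0 of 442904491 counts, which allows a level of up to 0.00677 CPM (3 counts over all libraries, counting error only). Cox7a2l, which joins complexes III and IV into supercomplexes, ranged from 55.1 to 114 CPM.

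**Figure D1:**
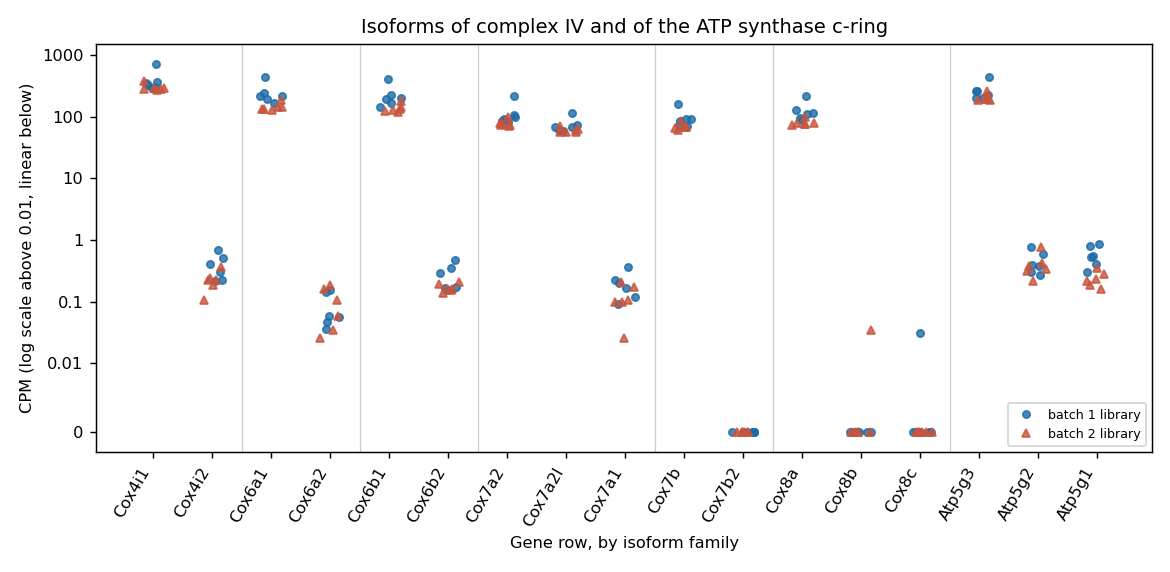
CPM of each isoform of complex IV and of the ATP synthase c-ring in the 12 libraries (1 point per library, log scale above 0.01 CPM and linear below), grouped by family. Cox4i1, Cox6a1, Cox6b1, Cox7a2, Cox7a2l, Cox7b, Cox8a and Atp5g3 lie above 50 CPM in all libraries, and their partners lie below 1 CPM.

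The 3 c-ring genes Atp5g1, Atp5g2 and Atp5g3 encode the same mature protein. Atp5g3 ranged from 185 to 437 CPM, Atp5g2 from 0.214 to 0.773 and Atp5g1 from 0.161 to 0.865. The authors counted reads that aligned to 1 place only, and 87.4% of the 50-base windows of the Atp5g2 transcript also occur in transcripts of other genes, against 0.0% for Atp5g3. Shared windows were likewise frequent for Atp5l (84.8%, row 0.418 to 0.937 CPM), Cox7c (53.0%, 4.89 to 10.1 CPM), Atp5o (50.3%), Atp5h (47.9%, 14.2 to 43.6 CPM), Uqcrb (43.4%) and Ndufs3 (39.7%). The places of the other genes in the genome were not checked, so a shared window may belong to an overlapping gene at the same place. Reads of windows that occur at more than 1 place would be lost. The levels per kilobase of Atp5o and Ndufs3 given above may therefore be too low, which was not tested. For Atp5g1 the share was 11.6% of an annotated transcript of 4715 bases. That transcript is longer than the whole row (chr11:96072793-96075694), so the share does not describe the stretch that was counted. Whether shared windows lower the level of Atp5g1 was not tested.

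The member levels were set apart by single libraries more than by condition. In siControl replicate 1 of batch 1, 70 of the 73 members that passed the filter on low counts had their highest level of all 12 libraries (95.9%, against 29.6% of all 12857 loci tested). The level there, divided by the median of the other 11 libraries, ran from 0.905 to 3.33 with a median of 2.24, while the median over all loci was 1.01. By complex the median of this ratio was 2.22 for complex I, 2.21 for complex III, 2.45 for complex IV and 1.77 for complex V. Within batch 2 the same held on a smaller scale for siControl replicate 3, which was highest of the 6 libraries for 69 of 73 members (94.5%, against 38.1% of all loci), at a median of 1.29 times the mean of the other 2 siControl libraries. Batch 1 members were also higher in the library numbered 1 than in that numbered 2 in all 3 conditions for 61 of 73 rows (83.6%, against 27.8% of all loci).

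**Figure D2:**
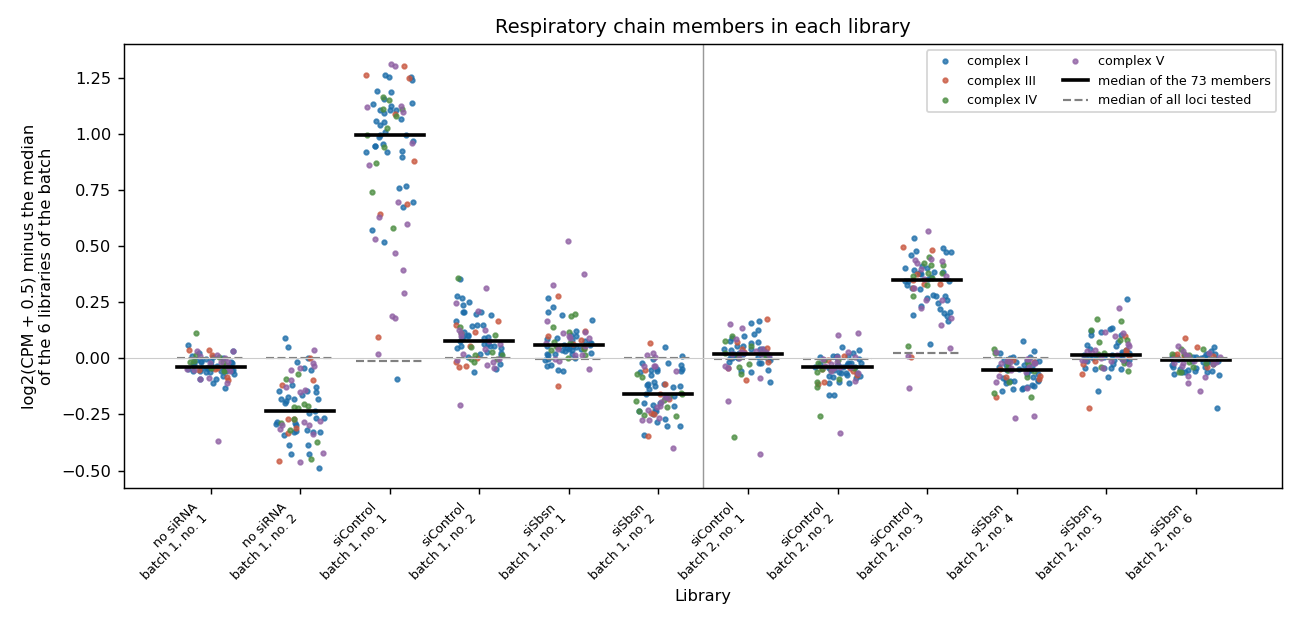
Each point is 1 of the 73 members tested, as log2(CPM + 0.5) minus its median over the 6 libraries of its batch, with the median of the members as a black bar and that of all loci as a dashed grey bar. The members' median is 0.99 in siControl batch 1 replicate 1 and 0.35 in siControl batch 2 replicate 3, and lies between -0.24 and 0.08 in the other 10 libraries.

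The single genes show the size of this. Uqcrq, a small subunit of complex III (chr11:53428948-53430831, mm10, minus strand), stood at 191 and 163 CPM without siRNA, at 500.3 and 225 with siControl and at 215 and 171 in the libraries labelled siSbsn of batch 1, and at 150.5, 144 and 199.5 with siControl and 127, 136 and 142 with siSbsn in batch 2. The siSbsn libraries lay below the siControl libraries in both batches, but in batch 1 the 2 siControl libraries were further apart than the lower of them was from any other. Uqcr11, another small subunit of that complex, showed the same order, at 46.5 and 32.9, then 109 and 44.1, then 55 and 35.4 CPM in batch 1, and at 27, 22 and 33.8 against 23.5, 20.4 and 24.1 CPM in batch 2. Here the conditions overlapped in both batches. Atp5k, the small ATP synthase subunit e, stood at 49.8 and 36 without siRNA, 124 and 49.7 with siControl and 54 and 37.6 CPM with the siSbsn label in batch 1, and at 37.9, 34.3 and 48.6 against 34.7, 35.1 and 36.4 CPM in batch 2. Its siControl replicate 1 of batch 1 was 2.5 times the other siControl library, and the remaining 11 libraries spanned 34.3 to 54 CPM.

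Several genes with long annotated transcripts moved less in that library, though Uqcrq (1521 bases) and Ndufb2 (4371 bases) did not. Which transcripts these cells make was not tested. Ndufs1, the largest core subunit of complex I (row joined with Ino80dos), stood at 126 CPM in siControl replicate 1 of batch 1, the lowest of all 12 libraries, which reached 146 at most. Uqcrc2, a core subunit of complex III (row joined with Pdzd9), stood there at 251 CPM within a range of 215.5 to 285. Atp5a1 was at 1019 CPM against 804.5 to 961 in the other libraries, and Atp5b at 2171 against 1467 to 1712. Members with principal transcripts of up to 700 bases had a median ratio of 2.58 (n = 24), those of 700 to 1500 bases 2.24 (n = 27) and longer ones 1.8 (n = 22), and across the 73 members length and ratio had a Spearman's rho of -0.465. The points share 1 library and its scaling, so this is a description of that library. Over all loci tested, the members included, fold changes varied with length too. In the siSbsn comparison of batch 1, the median log2 fold change was -0.66 over 318 loci of up to 700 bases, -0.56 over 1602 loci of 700 to 1500 bases and 0.07 over 10940 longer ones, beside -0.74, -0.73 and -0.47 for members of the same classes. Members had a median length of 971 bases against 3085 bases for all loci.

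**Figure D3:**
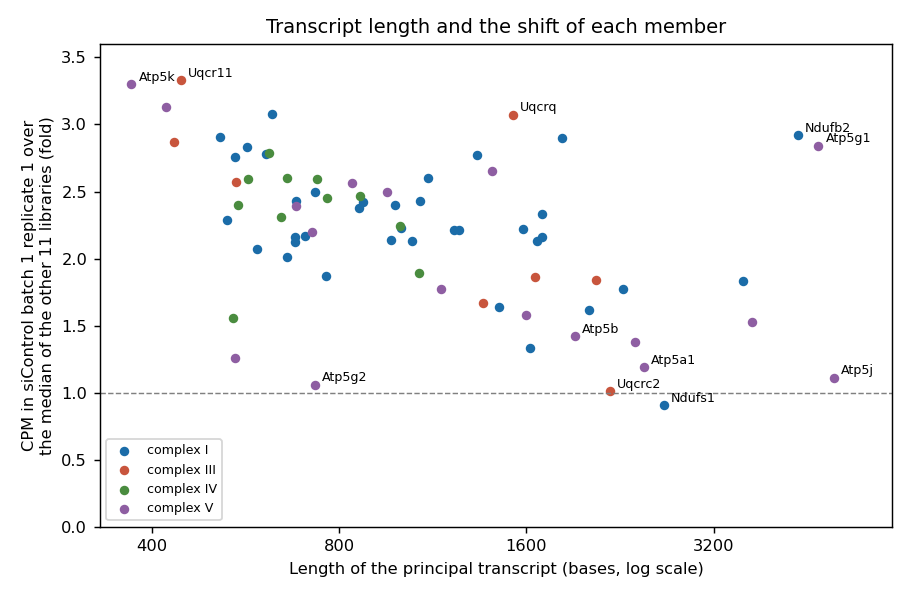
Fold of siControl batch 1 replicate 1 over the median of the other 11 libraries for each of the 73 members (linear axis) against the length of its principal transcript in bases (log axis), coloured by complex. Most members of up to 700 bases lie above 2, while Ndufs1, Uqcrc2 and Atp5a1 lie between 0.905 and 1.19. Ndufb2 and Atp5g1 are the points at 4371 and 4715 bases, and the annotated length of Atp5g1 is longer than its row in the genome.

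The subunits encoded by mitochondrial DNA that have rows here went the other way in the same library. None of the rows used holds mt-Co2, mt-Co3, mt-Atp6, mt-Atp8 or mt-Nd3. The 80 member rows summed to 16324 CPM in siControl replicate 1 of batch 1 and to 7933 to 9956 CPM in the other 11 libraries. The 4 rows that hold mitochondrial protein genes without ribosomal RNA (mt-Co1, mt-Nd2, mt-Nd4l with mt-Nd4, and mt-Nd5 with mt-Nd6 and mt-Cytb) summed to 4479 CPM there and to 5941 to 10053 CPM in the others. The ratio of nuclear to mitochondrial sums was 3.64 in that library, 0.851 to 1.11 in the other 5 of batch 1 and 1.14 to 1.54 in batch 2. The row of mt-Co1, the catalytic subunit of complex IV, was at 1340 CPM in siControl replicate 1 and 3081 to 3538 CPM in the other libraries of batch 1. Its nuclear partner Cox4i1 was at 716 CPM there and at 291.5 to 363 CPM in those libraries, so these 2 subunits of complex IV moved in opposite directions in 1 library. In siControl replicate 3 of batch 2 the nuclear sum was the highest of the batch at 9956 CPM, and the mitochondrial sum, 6445 CPM, was inside the range of the other 5 (5941 to 6956).

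**Figure D4:**
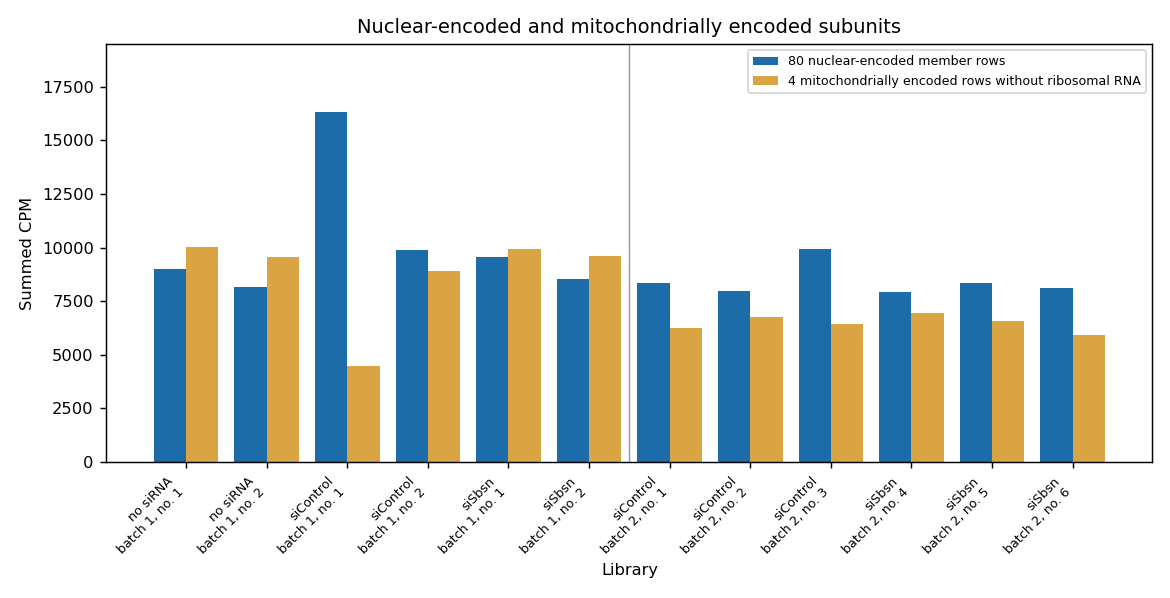
Summed CPM of the 80 nuclear-encoded member rows (blue) and of the 4 mitochondrially encoded rows (yellow) in each library, as bars from 0. In siControl batch 1 replicate 1 the blue bar is 16324 CPM and the yellow bar 4479 CPM, the highest and the lowest of their kind.

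Against this spread the members were compared between siSbsn and siControl over both batches, 5 libraries against 5, with batch in the fit. No member was called at an adjusted p under 0.05 and an absolute log2 fold change over 0.5 by edgeR's quasi-likelihood test, where 0.0% of the 12857 loci were called (0 loci), and DESeq2 called 0 members and 93 loci. At an unadjusted p under 0.05, edgeR had 14 of the 73 members lower and 0 higher, beside 9.49% of all loci lower, DESeq2 had 17 lower and limma-voom 9. The log2 fold change was below 0 for 69 members and above 0 for 4, with a median of -0.34 against 0.01 over all loci. By complex the medians were -0.35 in complex I (37 of 37 below 0), -0.32 in complex III (7 of 8), -0.34 in complex IV (10 of 11) and -0.29 in complex V (15 of 17). Without siControl replicate 1 of batch 1 the median was -0.13, with 10 members lower at an unadjusted p under 0.05 and 66 below 0, and the medians by complex were -0.13, -0.14, -0.13 and -0.12 for complexes I, III, IV and V. With a smooth trend of counts on transcript length removed from each library it was -0.07, with 60 below 0, beside -0.02 over all loci.

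In complex I, Ndufa12, an accessory subunit, had the lowest log2 fold change, -0.52 ± 0.19 (SE; adjusted p = 0.254 by edgeR). It stood at 40.4 and 21.5 CPM with siControl and 18.9 and 15.4 with the siSbsn label in batch 1, and at 16.4, 13.9 and 20.9 against 15.5, 13.2 and 12.6 in batch 2, so the groups overlapped in batch 2 only. The smallest p fell to the row of Ndufa4l2, which joins the hypoxia-responsive subunit with the folate enzyme Shmt2. It was at 170.0 and 138 CPM against 110.3 and 110.4 in batch 1 and at 85.6, 80.5 and 96.3 against 77.1, 75.4 and 79.2 in batch 2, without overlap in either batch (log2 fold change -0.29 ± 0.09, adjusted p = 0.254 by edgeR). The core subunit Ndufs8, which binds iron-sulphur clusters, also did not overlap, at 112 and 64.8 against 58.6 and 52 CPM and at 47.5, 46 and 60.5 against 42.9, 45.1 and 45.3 CPM (-0.39 ± 0.16, adjusted p = 0.256 by edgeR). In all, 4 of the 73 members lay lower with the siSbsn label without overlap in each batch, Ndufa4l2, Ndufb8, Ndufs8 and Uqcrq. Their share, 5.48%, was near the 4.22% of all loci, so it does not set the members apart. Higher without overlap in each batch lay 0 members, beside 5.13% of all loci. The core subunits Ndufs7, Ndufs3, Ndufv2 and Ndufv1 had log2 fold changes of -0.43, -0.38, -0.36 and -0.31, and Ndufs1, at -0.01 ± 0.07, had the highest value of the complex. Without siControl replicate 1 of batch 1, Ndufa12 was at -0.31, the row of Ndufa4l2 at -0.22, Ndufs8 at -0.21 and Ndufs7 at -0.20.

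In complex III the values ran from -0.53 ± 0.21 for Uqcrq to 0.04 ± 0.07 for Uqcrc2, with Uqcrc1 at -0.30 ± 0.15 and the iron-sulphur protein Uqcrfs1 at -0.28 ± 0.13. In complex IV, Cox5a, which binds the core of the enzyme on its matrix side, had the lowest value, -0.41 ± 0.18, and Cox7c, the row with 53.0% shared windows, the highest, 0.01 ± 0.17. The expressed isoforms Cox4i1, Cox6a1, Cox6b1, Cox7a2, Cox7b and Cox8a lay between -0.38 and -0.30, and Cox7a2l at -0.18 ± 0.15. In complex V, Atp5k had -0.47 ± 0.24, Atp5g3 -0.33 ± 0.16, the rotor subunit Atp5c1 -0.23 ± 0.12, Atp5b -0.14 ± 0.10 and Atp5a1 -0.10 ± 0.07. Atp5l (0.23 ± 0.22) and Atp5g1 (0.10 ± 0.30), both under 1 CPM, were above 0. Without siControl replicate 1 of batch 1, Uqcrq was at -0.26, Cox5a at -0.21, Atp5k at -0.16 and Atp5b at -0.05, and the 6 expressed complex IV isoforms lay between -0.17 and -0.10.

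**Figure D5:**
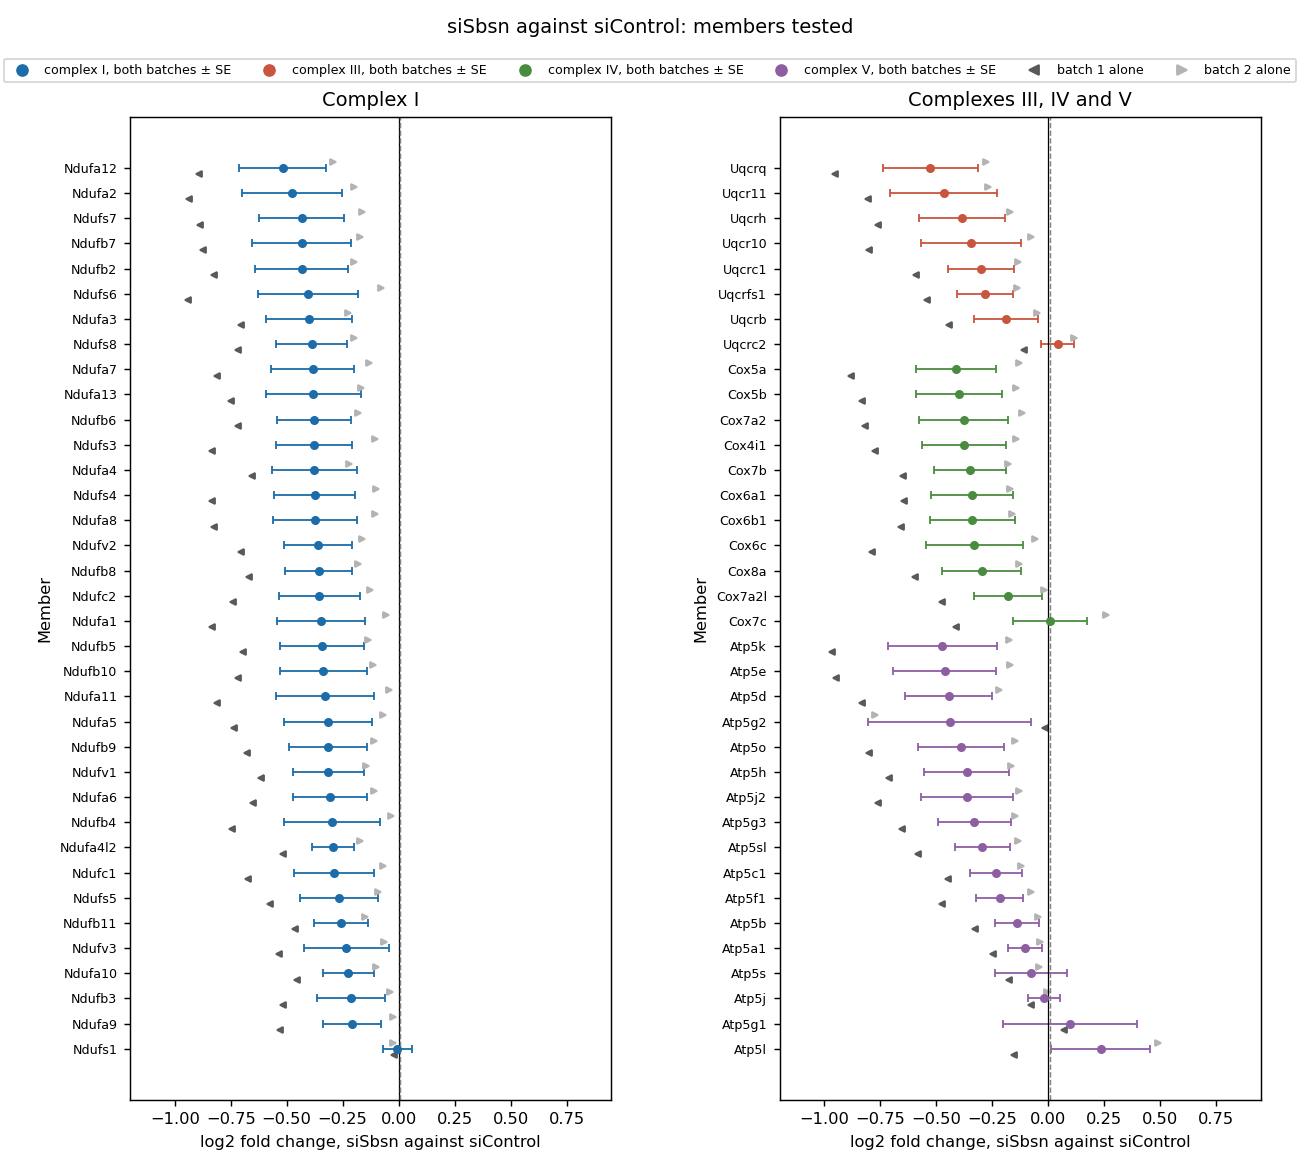
Log2 fold change of siSbsn against siControl for 72 of the 73 members tested, ordered within each complex. Circles with bars are the fit over both batches ± SE, dark left-pointing triangles batch 1 alone and light right-pointing triangles batch 2 alone, and the dashed line is the median of all loci. Circles lie above 0 for 4 members and below 0 for the rest, and the values of batch 1 lie mostly between -1.0 and -0.4.

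Within batch 1 the median of the members was -0.70 (74 of 75 below 0), with 0 members called by edgeR or DESeq2 (0.0% of 13176 loci called by edgeR) and 18 lower at an unadjusted p under 0.05, beside 8.24% of all loci. The fit of this batch found 10 of 100 simulated loci with a log2 fold change of 1. The lack of calls therefore cannot exclude changes of that size. Leaving out siControl replicate 1 moved the median to -0.13, and leaving out siControl replicate 2, so that replicate 1 stood alone for siControl and was assumed to vary like the other libraries, moved it to -1.08 with 57 members called, beside 19.3% of all loci. Within batch 2, where Sbsn was lower in all siSbsn libraries, the median was -0.13 (69 of 72 below 0), with 0 members called by edgeR or DESeq2, 5 lower at an unadjusted p under 0.05 by edgeR (5.69% of all loci lower) and 0.00774% of 12924 loci called. Without siControl replicate 3 of that batch the median was -0.01, with 48 of 73 below 0 and 3 members at an unadjusted p under 0.05 in each direction.

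The test of the difference between the batches called 0 members (0.0% of 12857 loci by edgeR, and 0 members by DESeq2), with 4 members at an unadjusted p under 0.05, all less negative in batch 2 (7.41% of all loci in that direction), and a median difference of 0.51. The smallest p values belonged to Ndufs3, Cox5a and Ndufs4. Ndufs3 stood at 75.2 and 44.7 against 35.4 and 33.8 CPM in batch 1 and at 33.7, 36.8 and 44 against 33.5, 36.6 and 35.8 in batch 2, a difference of 0.70 ± 0.28 in log2 fold change (adjusted p = 0.304 by edgeR). Cox5a, at 311 and 177 against 142 and 130.4 CPM and then 135.5, 134 and 174 against 127, 142.5 and 133, differed by 0.72 ± 0.30, and Ndufs4, at 127 and 67.1 against 57.4 and 54.5 and then 52.9, 54.9 and 64.2 against 52.4, 52.7 and 54.4, by 0.70 ± 0.31. For these 3 genes the groups overlapped in batch 2 and not in batch 1. Without siControl replicate 1 of batch 1 the median difference was 0.02, with 0 members at an unadjusted p under 0.05.

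In batch 1 siControl and siSbsn were also compared with the libraries without siRNA. The sources used do not say whether those cells received transfection reagent. With siControl all 75 members tested lay above the cells without siRNA, with a median of 0.80 against 0.00 over all loci. None was called by edgeR (0.0% of 13176 loci) or DESeq2, and 40 were higher at an unadjusted p under 0.05, beside 8.77% of all loci, with 26 of them in complex I. Uqcrq (1.08 ± 0.38), Atp5k (1.06 ± 0.44), Ndufa12 (1.04 ± 0.35), Uqcr11 (0.99 ± 0.46), Ndufs7 (0.96 ± 0.32) and Cox5a (0.92 ± 0.29) had the high values among the genes named here, and Ndufs1 (0.07 ± 0.18) and Uqcrc2 (0.13 ± 0.19) the low ones. Without siControl replicate 1 the median was 0.23 with 3 members at an unadjusted p under 0.05. The libraries labelled siSbsn differed less from those without siRNA: the median was 0.09, 70 of 75 members lay above 0, 0 were called by edgeR (0.0% of 13176 loci) or DESeq2, and 0 had an unadjusted p under 0.05. These comparisons share libraries with each other and with the siSbsn comparison of batch 1.

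The members were lower in batch 2 than in batch 1 with treatment in the fit. Of the 73 members, 35 were called lower by edgeR and 0 higher, beside 21.3% of the 12857 loci called lower, with a median of -0.49 against -0.02 over all loci. By complex, 17 of 37 were called in complex I, 4 of 8 in complex III, 7 of 11 in complex IV and 7 of 17 in complex V. Ndufa4, which is named for complex I but is bound to complex IV, stood at 368, 185, 216 and 146 CPM in the siControl and labelled siSbsn libraries of batch 1 and at 91.4 to 132 CPM in the 6 libraries of batch 2, without overlap (-1.13 ± 0.19, adjusted p = 8.2e-04 by edgeR). Its 2 libraries without siRNA, outside this fit, were at 184 and 141 CPM. Uqcr11 fell by 1.25 ± 0.24 on the log2 scale (adjusted p = 0.0018 by edgeR) and Ndufa3, an accessory subunit in the membrane arm of complex I, by 1.03 ± 0.19 (adjusted p = 0.0015 by edgeR), both without overlap among the libraries of this fit. The libraries without siRNA were at 46.5 and 32.9 CPM for Uqcr11 and at 42 and 31 CPM for Ndufa3. The lower value of each lay within the range of batch 2, 20.4 to 33.8 CPM for Uqcr11 and 23.8 to 35 CPM for Ndufa3. Cox6a1, at 429.9, 218, 237 and 189 CPM in batch 1 and 127 to 186 in batch 2, fell by 0.89 ± 0.19, Cox6b1 by 0.85 ± 0.19, Uqcrq by 0.84 ± 0.21, Ndufb2 by 0.79 ± 0.21, Cox8a by 0.77 ± 0.18 and the row of Ndufa4l2 by 0.67 ± 0.09 (adjusted p = 2.8e-04 to 0.0092 by edgeR). Atp5g1, at 0.161 to 0.865 CPM in the 10 libraries, fell by 1.46 ± 0.29. Several core subunits with long transcripts were not called: Atp5a1 had -0.03 ± 0.08, Ndufs1 0.03 ± 0.07, Atp5b -0.16 ± 0.10 and Uqcrc2 0.17 ± 0.08.

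The number of members called between the batches depended on the libraries and on length. It was 7 without siControl replicate 1 of batch 1 (18.4% of all loci called lower), 23 without the library labelled siSbsn replicate 1 of batch 1, the one in which Sbsn was not lower (18.1%), and 21 and 20 without siControl replicates 1 and 2 of batch 2 (20.5% and 20.2%). With the length trend removed 17.3% of all loci were called lower, and of the members 5 (Atp5g1, Ndufa4, Ndufb2, Ndufb7 and Uqcr11), with a median of -0.05. All 5 were among the 35. The 7 that remained without siControl replicate 1 of batch 1 were Atp5g1, Cox6a1, Cox6b1, Ndufa3, Ndufa4, Ndufa4l2 and Uqcr11, while Uqcrq (-0.49), Cox8a (-0.50) and Ndufb2 (-0.47) then missed the limit on the fold change. The sources used give no more than the batch, so what differed between the batches cannot be told apart. The summed markers of leukocytes and of muscle and brown fat were low in all libraries, and the 2 tested genes of each list were called lower in batch 2, as 3 of 5 melanocyte genes were called higher. Of all loci 21.3% were called lower and 16.4% higher. In the siControl and labelled siSbsn libraries the keratinocyte sum was 52700 to 99000 CPM in batch 1 and 37800 to 49400 CPM in batch 2. The fibroblast sum was 413 to 1160 and 358 to 420 CPM.

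The other genes of the pathway were read in the same fits. Of 39 assembly factors, 30 lay below 0 in the siSbsn comparison over both batches (median -0.19, 0 called by edgeR, 6 lower and 1 higher at an unadjusted p under 0.05), and of 7 genes of complex II and the electron carriers 6 lay below 0 (median -0.23). Cyc1, the haem-carrying subunit of complex III that the name rule does not take, had -0.34 ± 0.14, and Ndufab1, the acyl carrier protein of complex I, -0.46 ± 0.18, while Sdha, the large subunit of complex II, had 0.01 ± 0.06. Among the assembly factors Uqcc2 had -0.52 ± 0.20, Cox17, a copper chaperone, -0.46 ± 0.21, and Ttc19, needed for complex III, 0.45 ± 0.17. Citrate cycle genes had a median of -0.14 (11 of 13 below 0), from -0.29 ± 0.15 for Mdh2 to 0.20 ± 0.07 for Ogdh. The 16 regulators of mitochondrial genes had a median of 0.00, with 8 on either side of 0. The row of Gabpa among them is the member row joined with Atp5j. Of 76 mitochondrial ribosomal protein genes 73 lay below 0 (median -0.31), and of 84 cytosolic ribosomal protein genes, short genes outside the respiratory chain, 83 lay below 0 (median -0.38), with 77 at their highest level in siControl replicate 1 of batch 1 (91.7%, beside 95.9% of the members). The 4 mitochondrially encoded rows were above 0, with a median of 0.20, in that comparison, and 2 of 4 were above 0 in batch 2. Protein import genes had a median of -0.29 (23 of 23 below 0) and 17 rows of glycolysis genes, of which Eno1 has 2, of -0.02 (10 below 0). Without siControl replicate 1 of batch 1 these medians were -0.09 for assembly factors, -0.12 for complex II and carriers, -0.09 for the citrate cycle, 0.00 for regulators, -0.15 for mitochondrial and -0.20 for cytosolic ribosomal proteins, -0.15 for import, -0.04 for glycolysis and 0.02 for the 4 mitochondrially encoded rows. In batch 2 against batch 1, 7 of the 39 assembly factors were called lower and 2 higher (median -0.02), 4 of the 16 regulators were called higher and 0 lower (median 0.26), and 13 of the 17 glycolysis rows, both of Eno1 included, were called lower (median -0.74), beside 21.3% of all loci called lower and 16.4% called higher. The glycolysis rows called lower include Tpi1 (-1.07 ± 0.16) and Slc2a1, the glucose transporter (-1.72 ± 0.28).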

How the data were processed

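RNA-Seq was measured in 12 libraries of mouse keratinocytes, prepared from 100 ng of RNA each. The authors aligned the reads to mm10 with STAR, kept uniquely aligned reads and deposited raw counts per locus of the UCSC KnownGene annotation. No source used states a strand setting for the counting, so overlapping genes on opposite strands may share counts. The deposited counts were fitted with edgeR 4.0.16 in R 4.3.3 (TMM, filterByExpr by treatment, quasi-likelihood test, Benjamini-Hochberg adjustment over all loci). A locus was called at an adjusted p under 0.05 and an absolute log2 fold change over 0.5, and the batch by treatment term at the adjusted p alone. CPM used the TMM-scaled total of loci that passed the filter. Of the 80 rows, 73 passed in the fit over both batches. Transcript lengths came from GENCODE M21 and promoters from RefSeq (GRCm38.p6).

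The members and lists were chosen with earlier results of these data known. Named were, in each complex, the 2 members with the highest mean CPM and those with the lowest and highest fold change, up to 10 called members per comparison, the 3 smallest p values, core subunits and isoform families. Other genes, among them Ndufb7, Ndufb8, Atp5h, Ndufa7 and those of the pathway lists, were picked after their values were seen. A gene that the naming rule takes is counted among the members but not reported here. Alternatives were DESeq2 1.42.0, limma-voom (limma 3.58.1), DESeq2 size factors, no filter, a length trend removed (spline with 5 degrees of freedom), a replicate block and each library left out. The siSbsn fits were tested on simulated data with 100 loci at a log2 fold change of 1 and 100 at 2. Over both batches 85 and 99 were recovered, with 8 false calls. In batch 2 it was 93 and 96, with 3 false calls. In batch 1 it was 10 and 77, with 2 false calls, so most changes of 1 were missed there. Each simulated locus varied on its own, without a difference between batches. The shift that the members shared in siControl replicate 1 of batch 1 was not simulated either. Recovery in the real data may therefore be lower, also over both batches, and these counts do not make the lack of calls there evidence of no change. Intervals and floors cover counting error only.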

Additional observations from a re-analysis of the deposited data

How the results depend on the processing

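Medians below are those of the members' log2 fold changes. DESeq2, limma-voom and DESeq2 size factors moved none of these medians beyond the spread between replicates (0.279, the pooled SD of the library medians) and left the counts of members called within 1.5 times. Without the filter, edgeR called 7 members in the siSbsn comparison of batch 1 and 21 in siControl against no siRNA, beside 4.49% and 4.3% of all loci. The comparison over both batches had a median of -0.70 in batch 1 alone. With the length trend removed the median was -0.20 in batch 1 (-0.19 with principal transcripts, an alternative chosen after seeing the data, and -0.20 with the replicate block as well), 0.19 for the batch by treatment term (0.18), 0.25 for siControl against no siRNA (0.24, and 0.25 with the block) and -0.05 for batch 2 against batch 1 (-0.0403), where 5 members were called (4). The 5 siControl libraries alone gave 2 calls between batches (10.1% of all loci called lower). Leaving out each library in turn gave medians of -0.42 to -0.13 over both batches with 0 called, -1.08 to -0.13 in batch 1 with 0 to 57 called, -0.20 to -0.01 in batch 2 with 0 called, 0.0177 to 0.85 for the batch by treatment term with 0 to 65 called, 0.23 to 1.18 for siControl against no siRNA with 0 to 63 called, -0.03 to 0.21 for siSbsn against no siRNA with 0 called, and -0.61 to -0.22 for batch 2 against batch 1 with 7 to 46 called. The highest counts came without siControl batch 1 replicate 2, where the other siControl library was assumed to vary like the rest and 19.3%, 37.8% and 23.7% of all loci were called in batch 1, the batch by treatment term and siControl against no siRNA, except in the batch comparison, where the highest came without siSbsn batch 1 replicate 2 (22.9% of all loci called lower). The cause of these shifts was not tested.

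The labels give libraries of batch 1 the numbers 1 and 2 in each condition, and nothing says what they share. Deviations of same-numbered libraries correlated at 0.462 for siControl with siSbsn, 0.383 for no siRNA with siControl and 0.813 for no siRNA with siSbsn (13176 loci). With the replicate block 0 members were called, with a median of -0.31 over both batches and -0.62 in batch 1, and 45 members instead of 14 had an unadjusted p under 0.05 over both batches, as the share of all loci that were lower rose from 9.49% to 14.6%.

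Of the named genes, 7 changed sign in the comparison over both batches under some alternative, and none of them was called. With the length trend removed (longest transcript, principal transcript, and longest transcript with the replicate block) Ndufs1 was at 0.0513, 0.0173 and 0.0542, Atp5g1 at -0.0635, -0.1045 and -0.0502, Cox8a at 0.0361, 0.0295 and 0.0355 and Cox7a2l at 0.077, 0.0692 and 0.0775, and, with the longest transcript and the block only, Atp5b at 0.0074 and 0.0072 and Atp5l at -0.0096 and -0.0155. Cox7c was at -0.0203 without the batch term. Leaving out each library in turn, Ndufs1 ranged from -0.042 to 0.0305, Cox7c from -0.0744 to 0.1682 and Atp5g1 from -0.1013 to 0.341. Depth limits Atp5l, Atp5g1 and Atp5g2, which lie below 1 CPM, and the isoforms with 0 or 1 count.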
